A study of Mus musculus with 12 samples.

Results

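Expression of the Serpina1 cluster and of transthyretin was described in injured mouse kidneys. The members were the 5 near-identical mouse genes for alpha-1-antitrypsin, Serpina1a, Serpina1b, Serpina1c, Serpina1d and Serpina1e, and the gene for transthyretin, Ttr. They were found by gene name as 6 of the 54532 genes in each of 2 expression tables. They were chosen by measured values of these same comparisons, in which most of them differed between knockout and wild-type kidneys, so that their levels are given as a description with no test. Whole kidneys of 12 C57BL/6 mice in 4 groups of 3 were profiled by RNA sequencing. The groups were β-catenin knockout mice after unilateral ureteral obstruction (UUO, permanent ligation of the left ureter), wild-type mice after UUO, mice labelled CD44 knockout after unilateral ischemia-reperfusion injury (UIRI, clipping of the left renal pedicle), and wild-type mice after UIRI. In the study's protocol for UIRI the right kidney was also removed, on the day before the mice were killed. No such removal is described for UUO. β-catenin is encoded by Ctnnb1, and mice with floxed alleles of it were crossed with Ksp-Cre mice, in which Cre is driven by the Cadherin-16 promoter. The study describes its loss in distal and connecting tubules and collecting ducts, and for proximal tubules in one place in most of them and in another to a lesser degree. The study calls the knockout specific to tubular cells, and the gene in cells outside the tubules was not assessed here. The controls are labelled wild-type and were not Ksp-Cre mice, and the CD44 allele is not given in the sources used here. An age is stated there for purchased wild-type males and not for each sequenced mouse. All 12 kidneys were injured, and uninjured kidneys were not analysed here. Each comparison thus sets mice labelled knockout against mice labelled wild-type after the same injury.

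Alpha-1-antitrypsin is a serine protease inhibitor (serpin) that the liver secretes into blood, where it blocks neutrophil elastase. It works as a bait: the protease cuts an exposed reactive loop, and the inhibitor then traps it. Humans have a single gene, whereas mice carry a cluster of copies whose loops differ. Transthyretin carries thyroxine and, bound to retinol-binding protein, vitamin A. The liver and the choroid plexus are its main sources, and filtered transthyretin and retinol-binding protein are taken up again in proximal tubules by megalin, the product of Lrp2. Both are textbook targets of liver-type transcription factors such as HNF4, which proximal tubule cells also express.

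The Serpina1 copies lie on the minus strand of chromosome 12 in GRCm38. Serpina1a (ENSMUSG00000066366) spans 103853589 to 103863562, Serpina1d (ENSMUSG00000071177) 103763594 to 103773592, Serpina1c (ENSMUSG00000079015) 103894926 to 103904887 and Serpina1e (ENSMUSG00000072849) 103946931 to 103958975. Serpina1b (ENSMUSG00000071178) is annotated from 103728156 to 103830373, with upstream exons beyond Serpina1d, so that Serpina1d lies inside an intron of Serpina1b. All are annotated as protein coding.

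The copies are much alike in a stretch before their RefSeq starts. The rest of their promoters is not compared base by base here. A stretch of 86 bases just before the RefSeq start of each gene is shown because it was nearly the same in front of all 5 copies, those that were expressed here and those that were not. The stretches come from RefSeq (GRCm38.p6) and are written 5′ to 3′ on the minus strand, with the 10 positions that differ among the copies in capitals:
Serpina1a (chr12:103863625-103863710): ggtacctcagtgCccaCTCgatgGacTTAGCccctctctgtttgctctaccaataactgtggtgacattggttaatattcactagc
Serpina1b (chr12:103738200-103738285): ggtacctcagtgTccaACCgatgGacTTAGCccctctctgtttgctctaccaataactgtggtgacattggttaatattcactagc
Serpina1c (chr12:103904962-103905047): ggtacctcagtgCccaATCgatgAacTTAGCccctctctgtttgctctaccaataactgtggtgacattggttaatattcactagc
Serpina1d (chr12:103773634-103773719): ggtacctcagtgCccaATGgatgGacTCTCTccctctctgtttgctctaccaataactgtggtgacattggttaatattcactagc
Serpina1e (chr12:103956960-103957045): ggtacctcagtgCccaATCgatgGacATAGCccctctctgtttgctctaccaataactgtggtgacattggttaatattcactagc
Of these 86 positions, 76 were identical in all 5 copies, and pairs of copies were 91.9% to 97.7% identical. Its last base lay 6 bases before the RefSeq start of Serpina1a, 11 before Serpina1b, 12 before Serpina1c, 1 before Serpina1d and 63 before Serpina1e. These starts differ from the ends of the gene spans given above, and for Serpina1b and Serpina1e the stretch lies inside that span. In the windows from 250 bases before to 50 after the start, 4 of the motifs searched on both strands were not found in any of the 5 copies: HNF4 (CAAAGTCCA, in 0.475% of all 32851 mouse promoter windows), TCF/LEF, the partners of β-catenin (CTTTGAT or CTTTGAA, 8.65%), C/EBP (TTGCGCAA or TTGCGAAA, 0.356%) and the TATA box (TATAAA, 13.6%). That says only that these letters are not in these windows, and nothing on other motifs.

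The coding regions are as close. Over 1242 coding bases the 10 pairs of copies were 96.3% to 98.5% identical, whereas Serpina1f shared 55.9% to 56.8% with them. Base for base, the copies differ more in the reactive loop than in the rest of the coding region. The 81 bases that code for it (codons 363 to 389 of 413, GENCODE M21 transcripts, GRCm38) are shown because differences are densest there, with the 18 positions that vary among the copies in capitals:
Serpina1a: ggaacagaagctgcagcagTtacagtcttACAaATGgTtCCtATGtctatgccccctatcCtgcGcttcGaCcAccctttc
Serpina1b: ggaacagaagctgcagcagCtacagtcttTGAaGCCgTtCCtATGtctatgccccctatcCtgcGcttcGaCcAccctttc
Serpina1c: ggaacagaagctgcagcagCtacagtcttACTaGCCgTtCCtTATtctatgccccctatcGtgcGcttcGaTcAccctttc
Serpina1d: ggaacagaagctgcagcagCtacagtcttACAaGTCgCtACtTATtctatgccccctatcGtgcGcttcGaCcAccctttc
Serpina1e: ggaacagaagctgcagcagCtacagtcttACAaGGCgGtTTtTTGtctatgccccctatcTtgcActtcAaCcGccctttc
In this stretch 22.2% of the bases varied among the copies, against 5.86% in the rest of the coding region. That rest held 68 varying positions of 1161, so most of the differences lay outside the loop. The likeness also limits what was counted. Of all windows of 150 bases, 35.1% in Serpina1a, 11.9% in Serpina1b, 23.3% in Serpina1d, 50.5% in Serpina1c and 7.36% in Serpina1e were also found in a transcript of another gene. No such window was found for Ttr or Serpina1f. How reads that fit several copies were counted is not given in the sources used here, so the split among copies is uncertain and the sum of the copies is given beside it.

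Levels are FPKM, fragments scaled by exon length and by a depth value for each library. Genes of different length can thus be set side by side. The libraries held 15940405 to 20737443 reads in genes. The depth value was not set by these reads alone. After UUO, 1 read per kilobase of exon gave 0.0581, 0.0629 and 0.0563 FPKM in β-catenin knockout kidneys. In wild-type kidneys it gave 0.0515, 0.0534 and 0.0589 FPKM, with overlap. The extremes, β-catenin knockout library 2 and wild-type library 1, held 17528664 and 17609089 reads in genes. What else entered the depth value was not tested. The targeted genes separated the groups only in part. Ctnnb1 was at 84.7, 71.4 and 71.7 FPKM in β-catenin knockout kidneys and at 91.2, 86.7 and 98.5 FPKM in wild-type kidneys after UUO (log2 difference −0.28, limma adjusted p = 0.189). Cd44 was at 19.0, 11.97 and 13.9 FPKM in kidneys labelled CD44 knockout and at 19.9, 16.3 and 17.8 FPKM in wild-type kidneys after UIRI (−0.27, limma adjusted p = 0.339). Its RNA was thus not lost in the libraries labelled CD44 knockout, and every direction given for that comparison rests on the label. Nnt, a gene that some C57BL/6 substrains lack, was under 0.2 FPKM in all 12 libraries. Library 2 labelled CD44 knockout stood apart from the other two of its group, with 18 proximal tubule markers summing to 5529 FPKM in it, against 16074 and 13405 FPKM, and to 1092 FPKM, against 2398 and 2153 FPKM, without Kap, the most abundant of them. In it Slc7a13, a transporter of the late proximal tubule, was at 1.87 FPKM, against 38.7 and 43.0 FPKM, and the Y-linked Eif2s3y at 3.54 FPKM, against 15.8 and 15.9 FPKM. The other Y-linked genes in the fit differed less between the UIRI groups. Their log2 differences were −0.12 for Ddx3y, −0.15 for Kdm5d and 0.005 for Uty, against −0.84 for Eif2s3y. In bulk kidney, fewer cells of a type and less RNA per cell cannot be told apart.

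Serpina1a was higher in every β-catenin knockout kidney than in every wild-type kidney after UUO. It was at 20.3, 50.8 and 40.4 FPKM in β-catenin knockout kidneys, against 6.33, 2.19 and 6.07 FPKM in wild-type kidneys. The group means were 37.2 ± 15.5 and 4.86 ± 2.32 FPKM (SD, n = 3 each), a ratio of 7.65. The difference of mean log2(FPKM + 1), used for all differences here, was 2.70 (SE 0.42), and 2.31 to 3.08 with any 1 library left out. The groups lay far apart, with 20.3 FPKM in the lowest knockout and 6.33 FPKM in the highest wild-type kidney.

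Serpina1d, whose loop differs from that of Serpina1a at 9 bases, went the same way with a wider spread. It was at 19.4, 60.8 and 17.1 FPKM in β-catenin knockout kidneys and at 12.3, 2.37 and 10.4 FPKM in wild-type kidneys after UUO. The log2 difference was 1.83 (SE 0.63), and 1.21 to 2.19 with any 1 library left out. The groups did not overlap, but the nearest kidneys, 17.1 FPKM in a knockout and 12.3 FPKM in a wild-type mouse, lay close. Library 2 was the highest knockout and library 2 the lowest wild-type kidney for both Serpina1a and Serpina1d.

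Serpina1b was not higher in β-catenin knockout kidneys. It was at 8.88, 12.5 and 22.9 FPKM in β-catenin knockout kidneys and at 15.6, 26.2 and 16.7 FPKM in wild-type kidneys after UUO, and the groups overlapped. The log2 difference was −0.44 (SE 0.34), and −0.79 to −0.16 with any 1 library left out. The wild-type kidney with the least Serpina1a, at 2.19 FPKM, held the most Serpina1b, at 26.2 FPKM.

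Serpina1c and Serpina1e were nearly silent in all 4 groups. Serpina1c reached 0.97 FPKM, or 21 reads, in β-catenin knockout library 2. Its other libraries held 0 to 9 reads, so that its groups after UUO, which did not overlap, rested on 3, 21 and 3 reads in β-catenin knockout kidneys and 1, 2 and 0 reads in wild-type kidneys. Serpina1e held at most 6 reads in any library. Both fell below the minimum for the fit over all genes, a mean of 0.5 FPKM over the libraries compared, and 4 of the 6 members passed it.

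**Figure D1:**
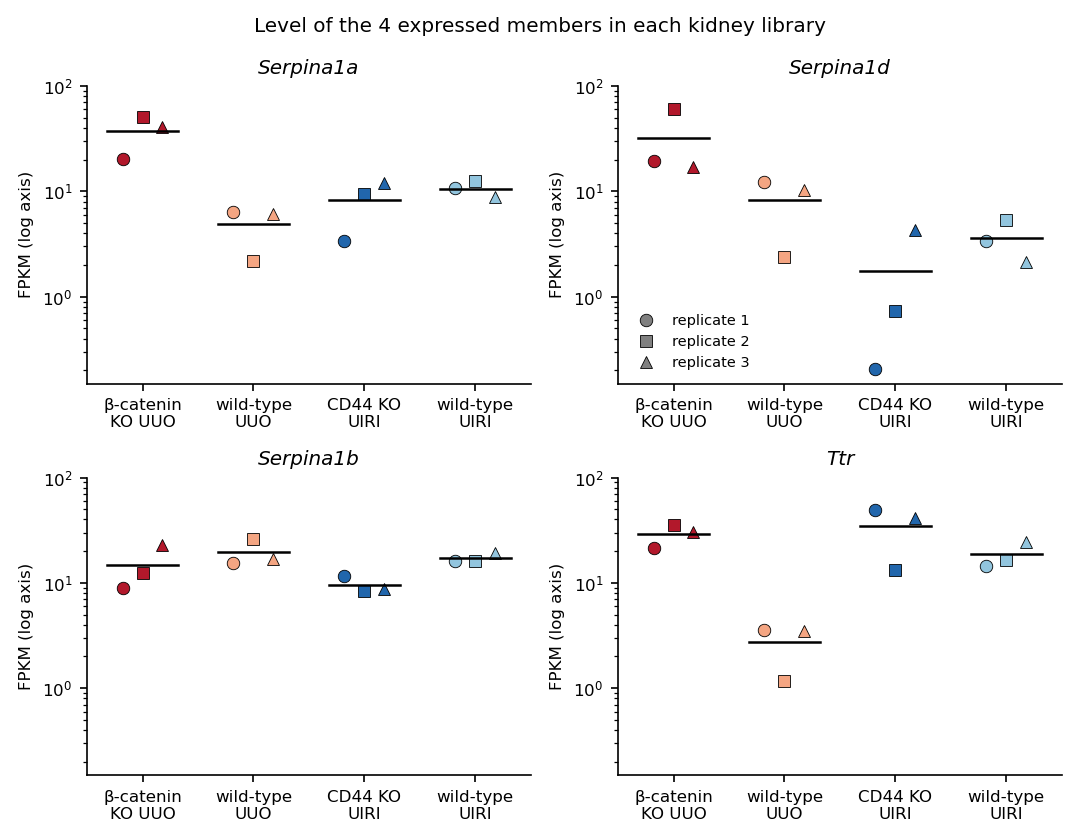
FPKM (log axis) of Serpina1a, Serpina1d, Serpina1b and Ttr in each of the 12 libraries, by group, with symbols for the replicate and a line at the group mean. Serpina1a, Serpina1d and Ttr were higher in all 3 β-catenin knockout kidneys than in the wild-type kidneys after UUO, and Serpina1b overlapped.

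Ttr (ENSMUSG00000061808), a protein-coding gene on the plus strand of chromosome 18 from 20665250 to 20674324 in GRCm38, showed the largest log2 difference of the members after UUO. It was at 21.5, 35.1 and 30.5 FPKM in β-catenin knockout kidneys, against 3.59, 1.18 and 3.48 FPKM in wild-type kidneys. The means were 29.0 ± 6.93 and 2.75 ± 1.36 FPKM (SD, n = 3 each), a ratio of 10.5. The log2 difference was 3.05 (SE 0.32), and 2.70 to 3.25 with any 1 library left out. Within the UUO table Ttr followed Serpina1a from kidney to kidney: the ratio of Ttr to Serpina1a was 1.06, 0.691 and 0.755 in β-catenin knockout kidneys and 0.568, 0.541 and 0.573 in wild-type kidneys.

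Counted over the members, every β-catenin knockout kidney was above every wild-type kidney for 4 of 6 (Serpina1a, Serpina1c, Serpina1d and Ttr) and below for 0 of 6. Of the 16166 genes in the fit, which leaves out Serpina1c and Serpina1e, 19.6% were separated in this way upward and 15.9% downward. Since the members were chosen with these values known, nothing is read from that contrast. The median log2 difference over all 6 members was 1.11, beside 0.01 over all genes in the fit.

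In kidneys labelled CD44 knockout no serpin copy stood above its wild-type kidneys. Serpina1b was at 11.6, 8.46 and 8.82 FPKM in kidneys labelled CD44 knockout, against 16.1, 16.3 and 19.2 FPKM in wild-type kidneys after UIRI. The log2 difference was −0.78 (SE 0.13), −0.91 to −0.71 with any 1 library left out, and the groups did not overlap. It was the most even of the members, with an SD of 1.72 FPKM around a mean of 9.63 FPKM in kidneys labelled CD44 knockout and of 1.71 FPKM around 17.2 FPKM in wild-type kidneys.

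Serpina1a and Serpina1d overlapped between the UIRI groups. Serpina1a was at 3.37, 9.46 and 11.99 FPKM in kidneys labelled CD44 knockout and at 10.7, 12.4 and 8.74 FPKM in wild-type kidneys (log2 difference −0.46, SE 0.39). That difference was 0.02 without library 1 labelled CD44 knockout, which held the least Serpina1a, and −0.77 at the other end. Serpina1d was at 0.207, 0.739 and 4.33 FPKM in kidneys labelled CD44 knockout and at 3.37, 5.38 and 2.14 FPKM in wild-type kidneys (−0.99, SE 0.55). These are 5, 17 and 119 reads in kidneys labelled CD44 knockout, against 79, 138 and 59 reads in wild-type kidneys. The difference was −0.54 without library 1 labelled CD44 knockout and −1.62 without library 3.

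Ttr also overlapped after UIRI. It was at 48.9, 13.2 and 41.3 FPKM in kidneys labelled CD44 knockout and at 14.6, 16.6 and 24.6 FPKM in wild-type kidneys (log2 difference 0.70, SE 0.47). Without library 2 labelled CD44 knockout the difference was 1.26, and without library 1 it was 0.36. Here Ttr and Serpina1a parted: library 1 labelled CD44 knockout held the most Ttr of all 12 kidneys and the least Serpina1a of its table. The ratio of Ttr to Serpina1a was 14.5, 1.40 and 3.44 in kidneys labelled CD44 knockout and 1.36, 1.34 and 2.82 in wild-type kidneys after UIRI. The median log2 difference over all 6 members was −0.24, and 0.02 without library 1 labelled CD44 knockout, beside 0.00 over all genes in the fit. Every kidney labelled CD44 knockout was below every wild-type kidney for 1 of 6 members, Serpina1b, and above for 0 of 6. Of the 16113 genes in that fit, which also leaves out Serpina1c and Serpina1e, 14.5% were separated downward and 19.1% upward.

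**Figure D2:**
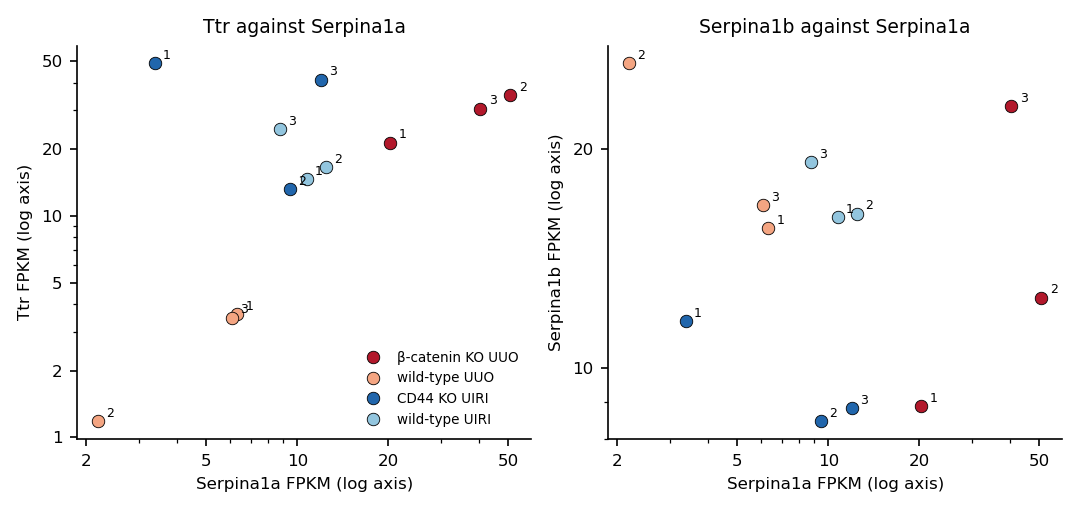
Ttr (left) and Serpina1b (right) plotted against Serpina1a in each library, in FPKM on log axes, with the replicate number beside each point. Along the Ttr axis the UUO kidneys rise with Serpina1a, whereas library 1 labelled CD44 knockout lies at 48.9 FPKM of Ttr and 3.37 FPKM of Serpina1a.

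The 2 tables were normalized separately, so their levels are set side by side without a test. Serpina1a was highest in β-catenin knockout kidneys (37.2 ± 15.5 FPKM), followed by wild-type kidneys after UIRI (10.6 ± 1.84), kidneys labelled CD44 knockout (8.27 ± 4.43) and wild-type kidneys after UUO (4.86 ± 2.32, SD, n = 3 each). The last 3 overlapped with their neighbours. Serpina1d ran from 32.4 ± 24.6 FPKM in β-catenin knockout kidneys through 8.34 ± 5.25 in wild-type kidneys after UUO and 3.63 ± 1.64 in wild-type kidneys after UIRI to 1.76 ± 2.24 in kidneys labelled CD44 knockout, and only the first stood clear of its neighbour. Serpina1b ran from 19.5 ± 5.81 FPKM in wild-type kidneys after UUO through 17.2 ± 1.71 in wild-type kidneys after UIRI and 14.7 ± 7.26 in β-catenin knockout kidneys to 9.63 ± 1.72 in kidneys labelled CD44 knockout, with overlap at each step. Ttr was at 34.5 ± 18.8 FPKM in kidneys labelled CD44 knockout, 29.0 ± 6.93 in β-catenin knockout kidneys, 18.6 ± 5.30 in wild-type kidneys after UIRI and 2.75 ± 1.36 in wild-type kidneys after UUO. The last stood below every kidney of the other groups.

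The sum of the 5 copies depends less on how reads were split among them, apart from their different lengths. The sum could still change with the make-up if reads that fit several copies were left out, which was not tested. It was 48.8, 125 and 80.6 FPKM in β-catenin knockout kidneys, against 34.2, 30.9 and 33.3 FPKM in wild-type kidneys after UUO, a log2 difference of 1.25. In the UIRI table it was 15.2, 18.8 and 25.5 FPKM in kidneys labelled CD44 knockout, against 30.5, 34.2 and 30.2 FPKM in wild-type kidneys, a log2 difference of −0.68. The groups did not overlap in either table, and the wild-type sums of both injuries lay between 30.2 and 34.2 FPKM.

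The make-up of the sum differed between the groups after UUO. Serpina1b made up 18.2%, 9.97% and 28.4% of the summed FPKM in β-catenin knockout kidneys, against 45.5%, 84.7% and 50.3% in wild-type kidneys after UUO. Serpina1a made up 41.6%, 40.5% and 50.2% in β-catenin knockout kidneys, against 18.5%, 7.07% and 18.2% in wild-type kidneys. The ratio of Serpina1a to Serpina1b, which no scaling of a library can change, was 2.29, 4.06 and 1.77 in β-catenin knockout kidneys and 0.406, 0.0835 and 0.363 in wild-type kidneys. After UIRI that ratio was 0.291, 1.12 and 1.36 in kidneys labelled CD44 knockout and 0.665, 0.763 and 0.456 in wild-type kidneys, and overlapped. The exon length of 2415 bases behind Serpina1b includes its upstream exons, against 1832 bases for Serpina1a, so a ratio between copies depends on the annotation whereas its order among kidneys does not.

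**Figure D3:**
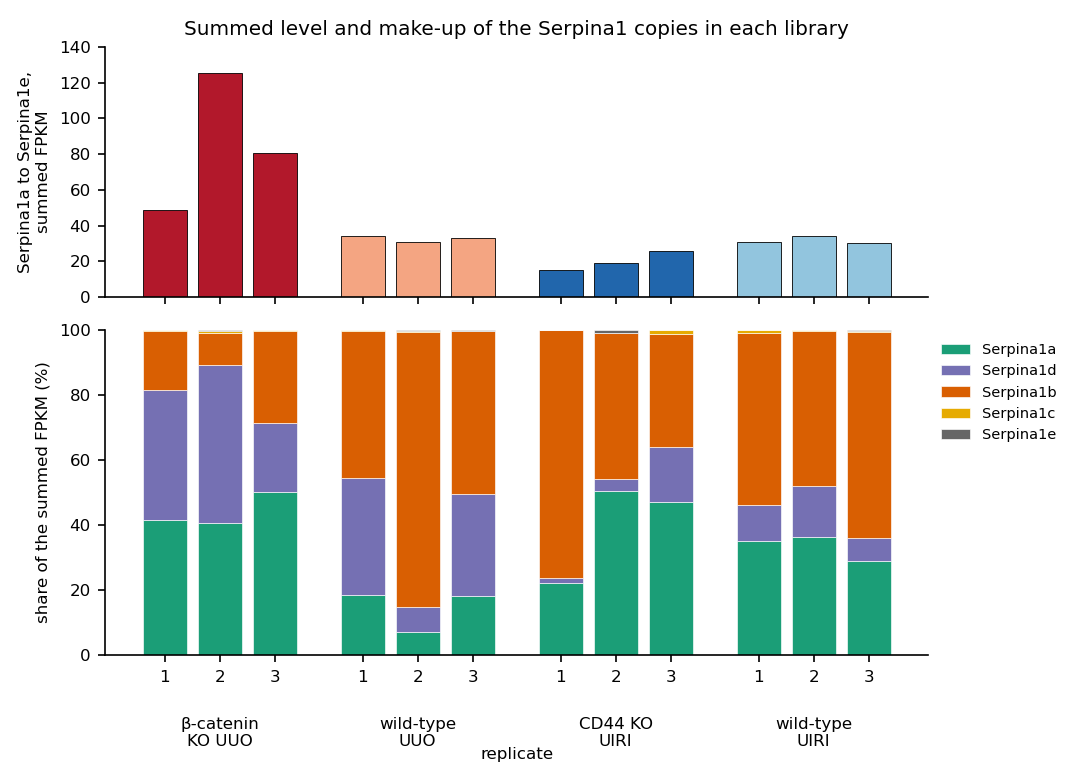
Top, summed FPKM of Serpina1a to Serpina1e in each library. Bottom, share of that sum (%) held by each copy, with libraries in the same order. Serpina1b held 9.97% to 28.4% in β-catenin knockout kidneys and 45.5% to 84.7% in wild-type kidneys after UUO.

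Set side by side, the difference between the 2 knockouts (β-catenin knockout minus wild-type after UUO, less the kidneys labelled CD44 knockout minus wild-type after UIRI) was 3.16 for Serpina1a (SE 0.64), 2.82 for Serpina1d (SE 0.94), 2.35 for Ttr (SE 0.63), 0.34 for Serpina1b (SE 0.40), 0.41 for Serpina1c and 0.08 for Serpina1e on the log2 scale. The median over the 6 members was 1.38. Knockout and injury changed together between the tables, so what belongs to either cannot be told apart. Over all 15489 genes in this fit 0.00646% were called by limma (adjusted p under 0.05), which is 1 gene, Gm8730, chosen for naming after its value was seen, and 2141 had an unadjusted p under 0.05.

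Of the other clade A serpins, relatives of the members, 4 fell in β-catenin knockout kidneys and 1 in kidneys labelled CD44 knockout, and 0 rose in either. Calls are by limma with Benjamini-Hochberg adjusted p under 0.05 over all genes in the fit. After UUO this called 6.21% of genes higher and 4.36% lower in β-catenin knockout kidneys, and after UIRI 4.02% higher and 2.19% lower in kidneys labelled CD44 knockout. With any 1 library other than library 2 labelled CD44 knockout left out, at most 10 genes of the whole table were called after UIRI, against 1001 with all and 2180 without library 2, so the calls after UIRI stand on the full set of kidneys. Of 20 other clade A serpin genes 8 passed the minimum after UUO. Those that fell were Serpina3f, Serpina3g, Serpina3i and Serpina3h, the last annotated as a pseudogene, of a neighbouring cluster that was likewise multiplied in mice and whose counts share the doubt about close copies. With any 1 library left out 2 to 4 were called. Serpina3g was at 14.1, 11.6 and 17.1 FPKM in β-catenin knockout kidneys, against 42.2, 54.3 and 58.2 FPKM in wild-type kidneys (log2 difference −1.79, SE 0.18, limma adjusted p = 0.00764). Serpina3h had −1.20 (limma adjusted p = 0.00981) and Serpina3f −1.60 (0.0157). Serpina3i was called in both tables, with −0.85 (limma adjusted p = 0.048) in β-catenin knockout kidneys and −0.72 (0.0326) in kidneys labelled CD44 knockout, where 9 serpins passed the minimum and it was the only one called. Serpina3n, a secreted serpin and acute-phase gene, had −1.32 (limma adjusted p = 0.0694) and −1.29 (0.0954) and was not called in either.

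Serpina1f, which lies beside Serpina1b but is far from the copies in sequence, followed Serpina1a and Serpina1d more than its other neighbours. It was at 34.6, 44.4 and 51.5 FPKM in β-catenin knockout kidneys and at 20.1, 4.51 and 24.5 FPKM in wild-type kidneys after UUO. The groups did not overlap, but the log2 difference of 1.61 (SE 0.54) was not called (limma adjusted p = 0.0973). It was at 3.5, 10.6 and 29.1 FPKM in kidneys labelled CD44 knockout and at 34.6, 20.9 and 19.0 FPKM in wild-type kidneys after UIRI (−1.10, SE 0.64, limma adjusted p = 0.316). The difference between the 2 knockouts of 2.72 was not called either (limma adjusted p = 0.251). Over the 12 libraries, after each table's mean was taken off, Serpina1f had a Pearson r of 0.87 with Serpina1d, 0.83 with Serpina1a and −0.16 with Serpina1b. These points share their group differences and injuries and are given as a description.

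**Figure D4:**
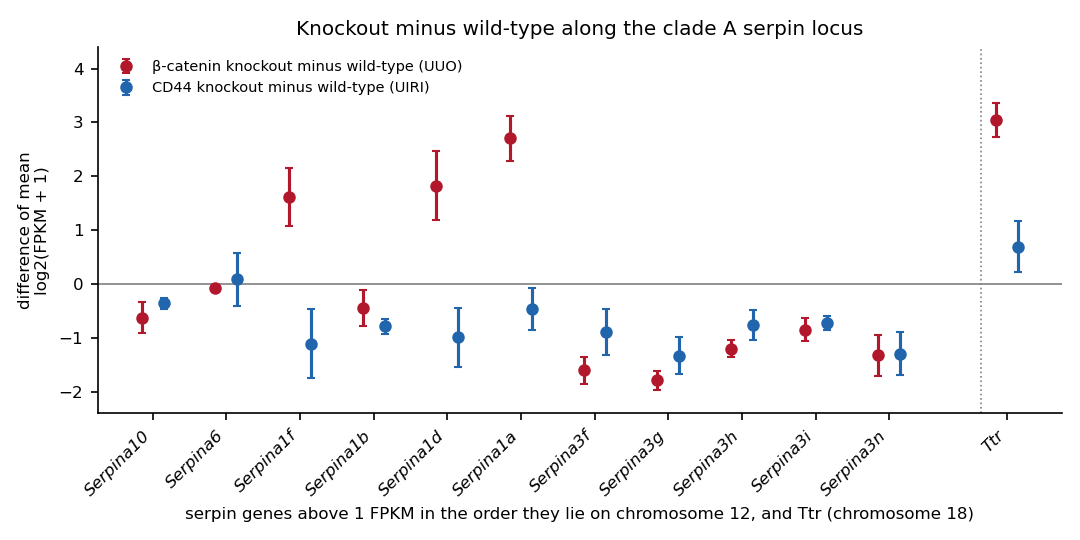
Difference of mean log2(FPKM + 1), knockout minus wild-type, for Ttr and for 11 clade A serpin genes in their order on chromosome 12. These 11 are the ones of that locus above 1 FPKM in any library, and clade A serpins on other chromosomes are not shown. Bars are the limma standard error, absent where a gene was below the minimum. Serpina1f, Serpina1d and Serpina1a lie above 1.6 in the β-catenin comparison, Serpina1b at −0.44 between them, and the Serpina3 genes below 0 in both comparisons.

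Hepatocyte markers were uneven. Albumin (Alb), the most abundant liver product, had at most 0.493 FPKM in any library, and 10 of 20 hepatocyte markers stayed under 1 FPKM in all 12 libraries, among them Ahsg, F2, Serpinc1 and Cps1. The 20 markers summed to 125 to 363 FPKM in β-catenin knockout kidneys and 113 to 308 FPKM in wild-type kidneys after UUO, and to 107 to 153 FPKM in kidneys labelled CD44 knockout and 54.9 to 81.0 FPKM in wild-type kidneys after UIRI. The fibrinogen genes Fga and Fgg carried most of these sums, with Fga at 49.6, 142 and 90.6 FPKM in β-catenin knockout kidneys and 65.6, 45.4 and 137 FPKM in wild-type kidneys after UUO, and Fgg at 42.8, 158 and 96.2 FPKM in β-catenin knockout kidneys and 84.0, 57.0 and 152 FPKM in wild-type kidneys. Without both, left out after their values were seen, the list summed to 32.5 to 63.3 FPKM in β-catenin knockout kidneys and 10.5 to 19.0 FPKM in wild-type kidneys after UUO, and to 21.4 to 37.9 FPKM in kidneys labelled CD44 knockout and 14.4 to 17.5 FPKM in wild-type kidneys after UIRI. Of 10 that passed the minimum after UUO 1 rose and 0 fell in β-catenin knockout kidneys: Apoc3, an apolipoprotein that slows the clearance of triglyceride-rich particles, at 12.8, 34.6 and 18.6 FPKM in β-catenin knockout kidneys, against 2.85, 2.21 and 5.22 FPKM in wild-type kidneys (2.32, SE 0.38, limma adjusted p = 0.0159). In kidneys labelled CD44 knockout Apoc3 was not called (0.67, limma adjusted p = 0.296), and of 9 markers 1 rose, Apoh (1.67, limma adjusted p = 0.0391), and 0 fell. Ambp (0.39, limma adjusted p = 0.0759), Apoa2 (0.82, 0.0834), Apob (0.90, 0.122) and Apoa1 (0.85, 0.144, at most 2.29 FPKM) were not called after UUO, nor was Apob after UIRI (0.89, 0.0502).

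Of the genes that carry or take up thyroid hormone and retinol, the ligands of transthyretin, 15 of 16 passed the minimum. After UUO 5 rose and 1 fell in β-catenin knockout kidneys, and after UIRI 7 rose in kidneys labelled CD44 knockout. With any 1 library left out 1 to 5 rose after UUO and 0 to 7 after UIRI, and with FPKM rescaled to TPM 2 rose and 2 fell after UUO and 3 rose after UIRI. Dio1, which converts thyroxine into active hormone, was at 11.7, 13.0 and 13.8 FPKM in β-catenin knockout kidneys, against 5.52, 2.49 and 4.06 FPKM in wild-type kidneys (1.51, SE 0.22, limma adjusted p = 0.0132). Lrat, which stores retinol as ester, rose by 0.75 (limma adjusted p = 0.0309) at levels of up to 1.26 FPKM. Stra6, the receptor for retinol-binding protein, fell (−1.28, SE 0.22, limma adjusted p = 0.018). Rbp4, the partner of transthyretin in blood, stayed low and was not called, at 1.61, 0.291 and 0.824 FPKM in β-catenin knockout kidneys and 0.318, 0.165 and 0.136 FPKM in wild-type kidneys after UUO (0.61, limma adjusted p = 0.175; after UIRI −0.34, 0.397). Lrp2, the uptake receptor, was at 53.6, 49.5 and 59.9 FPKM in β-catenin knockout kidneys, against 27.1, 22.8 and 37.2 FPKM in wild-type kidneys (0.91, limma adjusted p = 0.0276), and rose in kidneys labelled CD44 knockout as well (1.26, 0.0372). Amn, which anchors its partner cubilin, rose in β-catenin knockout kidneys (0.93, limma adjusted p = 0.0497) and in kidneys labelled CD44 knockout (0.95, 0.0267).

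Among 14 transcription factors of liver-type genes 8 passed the minimum. Of these 1, Hnf4a, rose in β-catenin knockout kidneys, 2 rose in kidneys labelled CD44 knockout, and 0 fell in either comparison. With any 1 library left out 0 to 2 rose after UUO and 0 to 2 after UIRI. Hnf4a was at 112, 112 and 113 FPKM in β-catenin knockout kidneys, against 54.8, 45.3 and 74.1 FPKM in wild-type kidneys after UUO (0.97, limma adjusted p = 0.0227). It was at 130, 114 and 139 FPKM in kidneys labelled CD44 knockout, against 67.4, 45.2 and 65.5 FPKM in wild-type kidneys after UIRI (1.11, 0.0279). The difference between the 2 knockouts was −0.14 (SE 0.26, limma adjusted p = 0.85) for Hnf4a. The part of these factors in the levels of the members was not tested. Cebpb (0.56, limma adjusted p = 0.29) and Cebpa (0.21, 0.427; after UIRI −0.05, 0.847) were not called.

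Of the proteases that alpha-1-antitrypsin meets, and markers of the neutrophils that release them, 6 of 10 passed the minimum. Elane, neutrophil elastase, had at most 0.598 FPKM, and 1 gene rose after UUO, Tmprss2, a protease of epithelial surfaces (0.59, limma adjusted p = 0.0169). St14 (0.44, limma adjusted p = 0.128), S100a8 (−1.77, 0.311) and Cxcr2 (−1.01, 0.331) were not called there, nor were S100a8 (−1.07, 0.0696) and S100a9 (−1.07, 0.0921) after UIRI. Of 16 genes that fold, sort or degrade secreted glycoproteins in the endoplasmic reticulum 0 were called in either table by limma. At an unadjusted p under 0.05 there were 3 in each. Os9 (0.56, limma adjusted p = 0.0696; after UIRI 0.31, 0.0874), Erp29 (0.39, 0.126), Hspa5 (−0.58, 0.163), Mcfd2 (0.33, 0.25) and, after UIRI, Surf4 (0.25, 0.157) were among those with the smallest p.

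Markers of 2 kidney cell types differed between the groups in both tables. Of 18 proximal tubule markers 10 rose and 0 fell in β-catenin knockout kidneys (2 to 10 rose with any 1 library left out), and 5 rose and 0 fell in kidneys labelled CD44 knockout (0 to 15), with medians of 1.00 and 1.16 over the list. The phosphate transporter Slc34a1 had 1.60 (limma adjusted p = 0.0181), the protease Napsa 1.71 (0.0155), the water channel Aqp1 1.43 (0.00935) and Acsm2 0.96 (0.0116) after UUO. The transporters Slc13a3 (1.87, limma adjusted p = 0.0267) and Slc22a6 (2.02, 0.0301) had the smallest p after UIRI. The markers summed to 5827, 10150 and 7151 FPKM in β-catenin knockout kidneys and 4992, 6649 and 3583 FPKM in wild-type kidneys after UUO, and to 16074, 5529 and 13405 FPKM in kidneys labelled CD44 knockout and 3459, 4693 and 3625 FPKM in wild-type kidneys after UIRI. Kap, an androgen-regulated gene, made up most of each sum. Without Kap, left out after its values were seen, the sums were 2418, 2423 and 1816 FPKM in β-catenin knockout kidneys, against 890, 961 and 986 FPKM in wild-type kidneys after UUO, with no overlap, as for Ttr and Serpina1a. They were 2398, 1092 and 2153 FPKM in kidneys labelled CD44 knockout, against 787, 778 and 859 FPKM in wild-type kidneys after UIRI, where Ttr, at 48.9, 13.2 and 41.3 FPKM in kidneys labelled CD44 knockout, was likewise lowest in library 2, while the summed Serpina1 copies were below every wild-type kidney.

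Of 12 macrophage markers 0 rose and 11 fell in β-catenin knockout kidneys, and 0 rose and 6 fell in kidneys labelled CD44 knockout. With any 1 library left out 3 to 11 fell after UUO and 0 to 9 after UIRI. Adgre1 (F4/80) had −1.57 (limma adjusted p = 0.00814), Ptprc −1.41 (0.0086), Cd68 −0.85 (0.0104) and Cx3cr1 −1.06 (0.0132) after UUO, and the complement genes C1qb (−1.03, 0.0267) and C1qa (−1.03, 0.0267) fell after UIRI. The list summed to 546 to 645 FPKM in β-catenin knockout kidneys and 1113 to 1344 FPKM in wild-type kidneys after UUO, and to 775 to 1383 FPKM in kidneys labelled CD44 knockout and 2042 to 2125 FPKM in wild-type kidneys after UIRI. The part of either cell type in the levels of the members was not tested.

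Acute-phase genes, a class that includes alpha-1-antitrypsin in humans, had medians of −0.75 after UUO and −0.29 after UIRI. Of 13 that passed the minimum 0 were called after UUO by limma (5 at an unadjusted p under 0.05). Serpina3n is given above, and Lbp (−0.45, limma adjusted p = 0.0957), Cp (−0.75, 0.0993) and Socs3 (−1.03, 0.106) had the next smallest p. After UIRI 1 of 9 rose, Saa1 (1.31, limma adjusted p = 0.0284), and 1 fell, Hp (−1.22, 0.027). The list summed to 723 to 1069 FPKM in β-catenin knockout kidneys and 779 to 1995 FPKM in wild-type kidneys after UUO, the highest value being that of wild-type library 3.

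**Figure D5:**
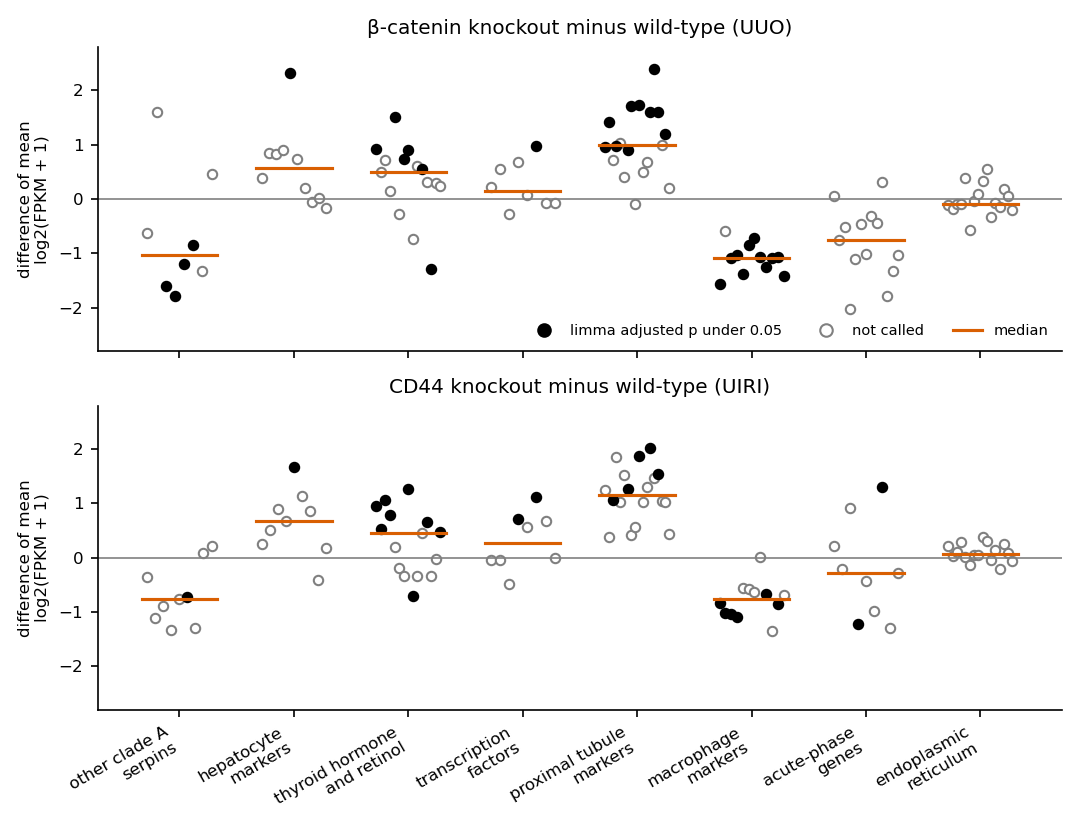
Difference of mean log2(FPKM + 1), knockout minus wild-type, for the genes of 8 lists that passed the minimum, in the β-catenin comparison (top) and the CD44 comparison (bottom). Filled points are genes called by limma and lines are list medians: proximal tubule markers have medians of 1.00 and 1.16 and macrophage markers of −1.08 and −0.76.

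The genes whose pattern was most like that of Ttr were chosen by correlation. Over the 12 libraries, with each table's mean taken off and 9668 genes of at least 5 FPKM in a group mean compared, the highest Pearson r values were those of Hpd, an enzyme of tyrosine breakdown (0.97), Cyp2d26, a cytochrome P450 (0.97), Atxn7l2 (0.97), Acox3, a peroxisomal acyl-CoA oxidase (0.96), and Smpd2, a sphingomyelinase (0.96). Hpd averaged 11.6 FPKM in β-catenin knockout kidneys and 0.528 FPKM in wild-type kidneys after UUO. The sum of the Serpina1 copies was most like Ypel3 (0.98), Eno3, an enolase (0.97), Lmbr1l (0.94), Stk19 (0.93) and Gm15889 (0.92), and none of these 5 was among the 5 named for Ttr. Among the members r was 0.86 for Serpina1a with Serpina1d, 0.76 for Serpina1a with Ttr, 0.59 for Serpina1d with Ttr, and −0.28, −0.28 and −0.40 for Serpina1b with Serpina1a, Serpina1d and Ttr. The 12 points share their group differences, and these values carry no test.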

How the data were processed

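Total RNA of whole kidneys was made into libraries with the NEBNext Ultra RNA kit. The authors aligned reads with HISAT2 2.0.5 to GRCm38 (mm10), counted them with featureCounts 1.5.0-p3, tested with DESeq2 1.20.0 and deposited FPKM per gene in 1 table for each knockout. The tables hold no fold changes or p-values. The gene lengths, the other values of the deposited tables that were used, are in bases. The setting for strand and for reads that map to several genes is not given in the sources used here. Wild-type columns share names between the tables and were assigned by the knockout in the same table.

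From these values, FPKM times gene length gave whole reads (within 0.01 read) for 100% of values, from which the depth was taken. Differences were fitted on log2(FPKM + 1) with limma 3.58.1 (eBayes with trend, R 4.3.3) within each table, for genes whose mean over the fitted libraries reached 0.5 FPKM, with Benjamini-Hochberg adjustment over all genes fitted. The difference between knockouts was fitted over all 12 libraries. Levels of members are group means without the minimum. Replicates are labelled as separate kidneys, and p-values measure the spread between them. The alternatives were pseudocounts of 0.1 and 0.01, no minimum, a minimum of 1 FPKM, rescaling to TPM, no trend, voom on the recovered reads, a replicate block and leaving out each library.

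The members and gene lists were chosen with earlier results of these data known. The text names the members, the targeted genes, of each list the 4 genes with the smallest p after UUO and 2 after UIRI, and Serpina1f, Serpina3n, Alb, Apoa1, Rbp4, Lrp2, Hnf4a, Cebpa, Elane and Nnt. Some genes and a motif that this rule would name are not reported here. The likeness to Ttr and to the summed copies names 5 genes each. Sums of marker lists without Kap or without Fga and Fgg were added after the values were seen. Genes named for a count, for a range or as examples beside these (Ahsg, F2, Serpinc1, Cps1, Gm8730) were chosen after their values were seen. Promoters are RefSeq windows, and coding regions are open reading frames of GENCODE M21 transcripts, aligned with Biopython 1.88.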

Additional observations from a re-analysis of the deposited data

Results flagged for a closer look

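The summed FPKM of Serpina1a to Serpina1e moved in opposite directions in the 2 knockouts: each β-catenin knockout kidney lay above the wild-type mean after UUO and each kidney labelled CD44 knockout below the wild-type mean after UIRI. The log2 differences were 1.25 and −0.68, and 1.92 apart. That difference was not tested, since the copies were chosen with these values known, and knockout and injury cannot be told apart.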

How the results depend on the processing

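After UUO 1709 genes were called (1004 higher, 705 lower in β-catenin knockout kidneys), and after UIRI 1001 (648 higher, 353 lower in kidneys labelled CD44 knockout). Without a minimum, limma called 473 and 63 genes and, for the difference between knockouts, 3 in place of 1. Voom on recovered reads called 1711 after UIRI and 2268 after UUO. With the replicate block 1667 genes were called after UUO and 0 after UIRI. Whether the replicate numbers pair the kidneys is not given in the sources used here and was not tested. Same-numbered kidneys had correlations of 0.08, 0.20 and 0.04 after UUO, beside −0.16 to 0.08 for kidneys of different numbers. After UIRI the values were −0.14, −0.03 and −0.03, beside −0.11 to 0.15. Rescaled to TPM, the median of all genes moved to −0.19 and −0.12, and the calls to 576 higher and 1177 lower after UUO and 220 higher and 473 lower after UIRI. With 1 library left out, 228 (without wild-type library 2) to 2449 (without β-catenin knockout library 3) genes were called after UUO. After UIRI this was 1 (without library 1 labelled CD44 knockout) to 2180 (without library 2), and at most 10 without any other single library. For the difference between knockouts 1 to 5 genes were called, and 2 with a pseudocount of 0.01.

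Member values kept their direction after UUO under each pseudocount, TPM and left-out library. The median of the 6 members was 1.11, 0.69 to 1.34 with 1 library left out, and 2.47 with a pseudocount of 0.01, where the silent copies weigh more. After UIRI it was −0.24, −0.45 to 0.02 with 1 library left out and −0.75 with a pseudocount of 0.01. The difference between knockouts was 1.38, 1.07 to 1.59 with 1 library left out, 2.30 with a pseudocount of 0.1 and 3.16 with 0.01. Of 983 values of listed genes under the alternatives 825 kept direction and call, 138 lost the call, 19 gained it and 1 changed sign (Cebpa after UIRI, −0.05 with all libraries, −0.13 to 0.080 with 1 left out, the highest without library 1 labelled CD44 knockout). The causes were not tested. Depth limits Serpina1c and Serpina1e, at no more than 21 and 6 reads.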
